A study of Mus musculus with 18 samples.

Results

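The genes described here encode the proteins of the cytosolic ribosome. They were chosen by symbol alone: names of the form Rpl or Rps followed by a number, with an optional final a, x or l, plus Rplp0, Rplp1, Rplp2 and Rpsa, and with at least 10 counts in at least 3 libraries after summing the rows of a symbol. The name rule matched 82 symbols and the count minimum kept 73 of them, 30 of the small (40S) and 43 of the large (60S) subunit, out of 32699 symbols in the table. The tests ran on 12145 symbols that passed a filter on low counts, among them 72 of the 73 genes. The one not tested, Rpl26, had between 0 and 53 counts per library. Another 9 symbols matched the name but had too few counts, among them Rpl10l, Rpl22 and Rpl39l. The mouse annotation GENCODE M21 lists Rpl32l and Rps4l as pseudogenes.

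RNA was sequenced from PyMT-BO1, a mouse breast cancer line described as luminal B-like, on a C57BL/6 background. In all 6 groups the gene of integrin β3, a cell-surface adhesion receptor, had been knocked out. The knockout cells had then received a retrovirus with no insert (pMx), with a working human integrin β3 (hβ3), or with a form of integrin β3 that cannot signal (Δβ3), and each of these 3 lines was grown with the solvent DMSO or with 10 nM docetaxel, a taxane that stabilises microtubules, for 24 h. There were 3 cultures per group and 18 libraries in all. Each construct is represented by 1 line, so a difference between constructs and a difference between lines cannot be told apart. Tests here rest on the variation among the cultures of a group, which the labels do not describe as separate experiments.

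A ribosome is built from ribosomal RNAs and these proteins, most of them in equal number, and their production is coordinated. Their messenger RNAs begin with a tract of pyrimidines (the TOP motif) that places their translation under the control of mTOR and of the TOP-binding protein Larp1, and their genes make up one of the most active gene sets of growing cells. Free Rpl5 and Rpl11, which travel with 5S ribosomal RNA, bind Mdm2 and thereby stabilise p53. Rplp0, Rplp1 and Rplp2 form the stalk of the large subunit, where translation factors dock.

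Library totals lay between 7972612 and 18961392 counts. The ribosomal RNA precursor Rn45s took 6.59% to 41.5% of all counts, so shares below are of the counts outside Rn45s. Single-gene levels are given in CPM, the usual unit in which a gene's count is divided by the library total, here adjusted with TMM factors, and put on a common scale. Integrin β3 (Itgb3) was at 0.322 to 1.3 CPM in the 6 pMx libraries and at 32.9 to 131 CPM in the 12 others. By their labels, the 12 others come from the lines given a form of integrin β3. The insert of hβ3 is human and the build was of the mouse (mm10), so how completely its reads were counted is not known. Of 14 luminal markers, 4 passed the filter. Krt8 was at 646 to 1907 CPM, whereas Elf3 and Gata3 had no count and Epcam did not exceed 0.0987 CPM. Culture 2 of Δβ3 in docetaxel stood apart: heart muscle markers (24 listed, 17 tested, Nppb and Smpx without a count) summed to 48699 CPM there and to 5842 CPM in Δβ3 DMSO culture 1. The sums were 2146, 1436 and 425 CPM in pMx DMSO cultures 1, 2 and 3 and 2449, 228 and 316 CPM in pMx docetaxel, against 316 to 501 CPM in the other Δβ3 libraries and 182 to 762 CPM in the hβ3 libraries. Δβ3 docetaxel culture 2 and Δβ3 DMSO culture 1 also held more Rn45s than the others of their groups, at 23.6% and 41.5%. Each comparison is therefore also given for the 16 libraries without these 2, and the part of the heart muscle signal in the 18-library results was not tested.

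The table counts reads per transcript model, and this limits which ribosomal protein genes can be compared by level. The 44 genes with 1 model had a median of 446 CPM and held 96.9% of the counts of all 73. The 19 genes with 2 models had a median of 16.7 CPM, and the 10 with 3 or more had a median of 4.2 CPM. A low value of a gene with several models does not show low expression. Many ribosomal protein genes also have processed copies elsewhere in the genome: among 71 genes with a transcript sequence, a median of 38.5% of the 50-base windows also occurred in a transcript of another gene. This share was 6.3% for Rpl8, 16.5% for Rpl4, 60% for Rplp1, 64.3% for Rpl6 and 81.1% for Rpl36, so counts of the last 3 are the less certain.

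The promoter entries were searched for pyrimidine tracts and short motifs. Of the 73 genes, 54 had an entry in the RefSeq promoter table (build GRCm38.p6). A C followed by 4 or more C or T letters within 5 bases of the annotated start was present in 26 of the 54 (48.1%), against 21.2% of all genes of the table, and so was absent from most of them. In the wider window of 80 bases from 50 before to 30 after the annotated start, the longest unbroken run of C and T letters had a median of 9.5 bases in these genes and 6 bases in all 27025 genes of the table. A run of at least 10 bases was present in 50% of them against 17.3% of all. The windows below belong to 7 of the 10 genes that were higher in hβ3 than in pMx cells under docetaxel and to the muscle paralog Rpl3l, for contrast. Capitals mark the longest C and T run on the gene's strand, or the earlier of equal runs. Where a gene has several starts the one with the longest run is shown.
Rpl34, chr3:130730308-130730387, minus strand: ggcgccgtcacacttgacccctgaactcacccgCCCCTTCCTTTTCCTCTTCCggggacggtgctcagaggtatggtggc
Rpl11, chr4:136053364-136053443, minus strand: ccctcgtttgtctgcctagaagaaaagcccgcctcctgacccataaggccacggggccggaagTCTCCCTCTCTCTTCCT
Rpl14, chr9:120571467-120571546, plus strand: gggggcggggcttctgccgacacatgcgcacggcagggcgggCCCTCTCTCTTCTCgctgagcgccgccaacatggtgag
Rpl4, chr9:64173337-64173416, plus strand: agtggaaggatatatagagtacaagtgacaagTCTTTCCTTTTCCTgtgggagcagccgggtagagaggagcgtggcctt
Rps7, chr12:28635924-28636003, minus strand: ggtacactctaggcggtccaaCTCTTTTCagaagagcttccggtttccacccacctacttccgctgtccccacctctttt
Rps2, chr17:24720013-24720092, plus strand: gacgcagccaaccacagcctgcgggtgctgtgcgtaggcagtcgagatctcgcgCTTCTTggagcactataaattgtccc
Rpl6, chr5:121204451-121204530, plus strand: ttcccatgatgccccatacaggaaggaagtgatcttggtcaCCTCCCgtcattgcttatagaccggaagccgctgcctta
Rpl3l, chr17:24727776-24727855, plus strand: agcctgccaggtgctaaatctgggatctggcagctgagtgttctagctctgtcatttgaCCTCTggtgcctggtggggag

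The run was 20 bases long in Rpl34 and at least 17 in Rpl11, where it reaches the end of the window. It was 14 bases long in Rpl14 and Rpl4, 8 in Rps7, 6 in Rps2 and Rpl6, and 5 in Rpl3l. In Rps7 the last 8 bases of the window form another run of that length, which may extend past the window. The marked run began 17 bases before the annotated start in Rpl34, 8 before it in Rpl14 and 18 before it in Rpl4. It began 29 bases before the start in Rps7 and 9 before it in Rpl6. In Rpl11 it began at base 14 after the start, in Rps2 at base 5 and in Rpl3l at base 10. These runs therefore do not all lie at the annotated start. Over the whole promoter entry, from 250 bases before to 50 after the start and on both strands, the letters CCGGAAG occurred in 38.9% of the 54 genes and in 9.93% of all. The letters TCTCGCG occurred in 22.2% and 2.92%, GGGCGG in 59.3% and 38.2%, AAGATGG in 14.8% and 7.28%, and the TATA-box letters TATAAA in 9.26% and 15.7%. Of the 8 genes shown, Rpl11, Rpl34, Rpl6, Rps2 and Rps7 held CCGGAAG, and Rpl14, Rpl4 and Rpl3l did not. A match of letters describes the window and does not show that a factor binds there.

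The stalk genes were among the most abundant per length. With 1 model each, Rplp1 stood first at 3740 CPM per kilobase and Rplp0 second at 2576, followed by Rps26 at 2139 (named after its value was seen) and Rpl8 at 2022. The pseudogenes Rpl32l and Rps4l closed the order of the genes with 1 model, at 3.53 and 0.946. Most genes moved together from library to library. Among 41 genes with 1 model and at least 50 CPM, the median correlation of log2 CPM between pairs of genes was 0.778 over the 18 libraries and 0.847 over the 16. These are descriptions, since the genes share their libraries and their scaling.

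Summed over the 73 genes, the share of counts outside Rn45s was 3.08%, 3.43% and 3.78% in the pMx DMSO cultures and 2.33%, 3.28% and 3.11% in the pMx docetaxel cultures. In Δβ3 cells it was 2.85%, 4.1% and 3.39% in DMSO and 3.21%, 1.7% and 3.36% in docetaxel. In hβ3 cells it was 3.85%, 3.8% and 3.53% in DMSO and 3.9%, 4.16% and 3.83% in docetaxel. All 3 hβ3 docetaxel cultures lay above the 6 docetaxel cultures of the other lines, whereas the DMSO ranges overlapped. The lowest value in each of the pMx and Δβ3 groups was the culture with the most heart muscle markers of its group: culture 1 in pMx DMSO, pMx docetaxel and Δβ3 DMSO, and culture 2 in Δβ3 docetaxel, the lowest of all. The part of these markers in the shares was not tested. Both subunits gave the same picture: in docetaxel, 40S genes summed to 0.87% ± 0.167 (SD, n = 3) in pMx and 1.16% ± 0.0569 in hβ3, and 60S genes to 2.04% ± 0.339 and 2.81% ± 0.114. These are shares of sequenced RNA, and they give no amount of RNA per cell.

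**Figure D1:**
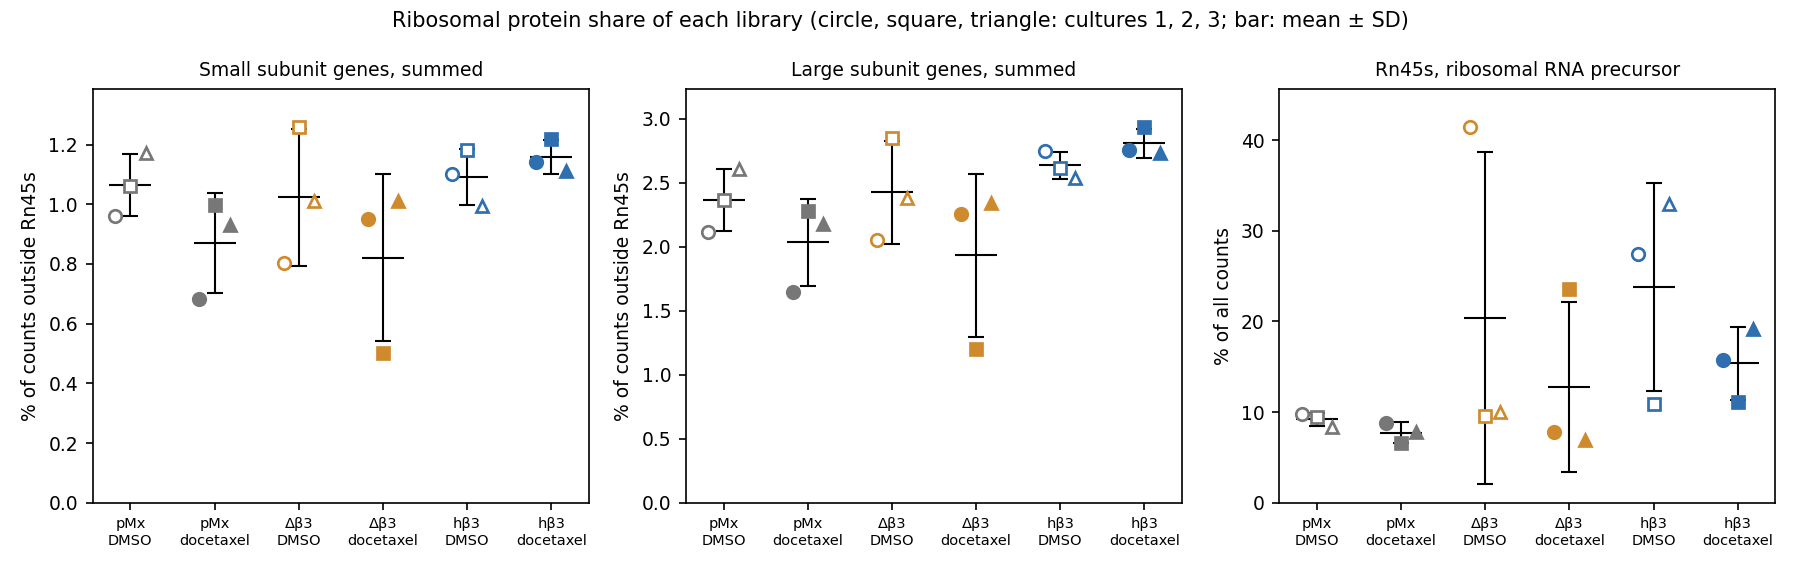
Percent of counts outside Rn45s taken by 40S (left) and 60S (middle) ribosomal protein genes and percent of all counts taken by Rn45s (right), by group. Each point is 1 culture, filled in docetaxel, and the bar is the mean ± SD (n = 3); the 3 hβ3 docetaxel cultures lie above the other docetaxel cultures in both subunit panels.

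The first comparison asks what 24 h of docetaxel did to these transcripts, as the mean of the 3 lines. Docetaxel lowered 9 of the 72 tested genes and raised none, by edgeR's quasi-likelihood test with Benjamini-Hochberg adjusted p under 0.05. Over all 12145 genes, 7.67% were called lower, 7.9% higher and 15.6% in either direction, beside 12.5% of the ribosomal protein genes, all lower. Among the genes that fell were Rps27a, Rps15, Rps19, Rpl21, Rpl3, Rpl36, Rpl18 and Rpl8. The direction was more general than the calls: 64 of the 72 log2 fold changes were negative, with a median of -0.247 against 0.064 over all genes, of which 57.1% had a positive value. In the 16 libraries 21 of 73 genes fell and none rose, beside 14.3% of all genes called lower and 15.8% called higher. These 21 included 8 of the 9; Rpl18 was not among them (adjusted p = 0.0713). Without Δβ3 DMSO culture 1 alone, 14 genes were called. The share of all genes called is not given here or below for fits without a single library, so such counts stand without a background.

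Of the 9 genes, Rpl36, Rpl8 and Rpl18 have 1 transcript model, and all 3 belong to the large subunit. Rpl36, on mm10 chromosome 17 from 56613416 to 56614243 (plus strand, GENCODE M21), was at 141, 168 and 159 CPM in pMx DMSO and 83.4, 121 and 110.4 in pMx docetaxel. In Δβ3 cells it was at 174, 235 and 157 CPM in DMSO and 122, 107 and 135 in docetaxel. In hβ3 cells it was at 213, 277 and 197 CPM in DMSO and 182, 212 and 175 in docetaxel. The drug and solvent ranges did not overlap in pMx and Δβ3 and overlapped in hβ3. Its mean log2 fold change was -0.50 ± 0.10 (SE; adjusted p = 0.00307, edgeR), and the call held in each of 18 fits that left out 1 library.

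Rpl8, a core protein of the large subunit encoded on chromosome 15 from 76904078 to 76906314 (plus strand), was at 1471, 1765 and 1731 CPM in pMx DMSO and 964, 1332 and 1273 in pMx docetaxel. In Δβ3 it was at 1851, 2247 and 1843 CPM in DMSO and 1567, 1103 and 1582 in docetaxel. In hβ3 it was at 2236, 2168 and 2132 CPM in DMSO and 1932, 2195 and 1983 in docetaxel. Again the ranges separated in pMx and Δβ3 and met in hβ3, where docetaxel culture 2 lay above 2 of the DMSO cultures. The mean log2 fold change was -0.35 ± 0.09 (adjusted p = 0.0134, edgeR), and this call also held in all 18 fits that left out 1 library.

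Rpl3, which shapes the peptidyl transferase centre, and Rps19, a 40S protein mutated in Diamond-Blackfan anaemia, were low-count genes with several models. Rpl3 was at 28.8, 31.8 and 35.5 CPM in pMx DMSO and 20, 27.4 and 26.7 in pMx docetaxel. The Δβ3 cultures had 57.1, 35 and 36.7 CPM in DMSO and 27.5, 14.3 and 24 in docetaxel, and the hβ3 cultures had 40.7, 39.4 and 37.8 CPM in DMSO and 28.5, 28.2 and 27.7 in docetaxel. Rpl3 was the one gene of the 72 whose docetaxel range lay below its DMSO range in each line, beside 3.32% of all genes. Its mean log2 fold change was -0.61 ± 0.13 (adjusted p = 0.00361, edgeR), and -0.43 in the 16 libraries. Rps19 had a mean log2 fold change of -0.77 ± 0.19 and -0.48 in the 16 libraries; Δβ3 DMSO culture 1 held 71.1 CPM of it, against 12.1 to 31.4 in the other 17 libraries.

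Further calls of this comparison included genes with few counts. Rps15 had a log2 fold change of -0.81 and Rpl21 of -0.62. Rps27a, a fusion of ubiquitin with a 40S protein, had -0.82 and a mean level of 2.37 CPM. Rpl18 had -0.35 ± 0.11 at a mean of 572 CPM and lost its call in 8 of the 18 fits without 1 library, with the highest adjusted p at 0.0842 without hβ3 DMSO culture 1. Rps27a lost its call in 1 of them, without hβ3 DMSO culture 2 (adjusted p = 0.0512).

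Within the empty-vector line, 71 of 72 log2 fold changes were negative and the median was -0.357, against 0.003 over all genes, of which 50.3% had a positive value. None passed the adjusted threshold in the 18 libraries by edgeR, beside 3.62% of all genes called, 1.92% higher and 1.7% lower. At an unadjusted p under 0.05 there were 16, and DESeq2 called 4 lower, beside 3.38% of all genes. The share of all genes at this unadjusted threshold is not given here or below, so such counts stand without a background. The ranges of the 3 docetaxel and 3 DMSO cultures did not overlap for 26 of the 72 genes, all lower in docetaxel, beside 17.7% of all genes (17.4% in the other direction). In the 16 libraries 20 of 73 genes were called lower, beside 11%. The pMx cultures are the same in both fits. Without Δβ3 docetaxel culture 2 alone 7 genes were called lower, and without Δβ3 DMSO culture 1 alone it was 1. The biological coefficient of variation was 36.1% in the 18 libraries and 13.2% in the 16. In pMx docetaxel culture 1, the low library of its group, heart muscle markers were at 2449 CPM against 228 and 316 in the other cultures, fibroblast markers (7 of 10 tested) at 81.7 against 30.3 and 27, and endothelial markers (3 of 8 tested, Tek and Erg without a count) at 35.6 against 3.65 and 5.11. The pMx DMSO cultures had 425 to 2146, 25.7 to 70.5 and 7.03 to 28.6 CPM of the same markers. Without pMx docetaxel culture 1, the median was -0.204 and 10 genes were called lower in the remaining 15 libraries, beside 10.1%.

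In Δβ3 cells 64 of 72 genes had a negative log2 fold change, with a median of -0.295 against 0.111 over all genes. Over all genes 3.53% were called lower, 3.33% higher and 6.87% in either direction. The 4 ribosomal protein genes called, all lower, were Rps19 (-1.52 ± 0.34), Rpl3 (-0.96 ± 0.22), Rpl18 (-0.65 ± 0.19) and Rpl36 (-0.64 ± 0.18). The docetaxel range lay below the DMSO range for 19 of 72 genes, beside 8.99% of all genes. In the 16 libraries, where each Δβ3 group has 2 cultures, 4 of 73 were called lower, beside 5.28%, and Rps19 and Rpl3 were among them. The values there were -0.70 for Rps19 and -0.47 for Rpl3. Rpl3 lost its call without Δβ3 DMSO culture 1 (adjusted p = 0.0607), Rpl18 in 15 of 18 fits without 1 library and Rpl36 in 14. The count of calls was 2 in 11 of these fits, among them the one without Δβ3 DMSO culture 1, 7 without Δβ3 docetaxel culture 3 and 9 without Δβ3 DMSO culture 3. The highest adjusted p was 0.136 for Rpl18 (without Δβ3 DMSO culture 1) and 0.147 for Rpl36 (without Δβ3 DMSO culture 2).

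In hβ3 cells the genes were evenly split, 33 higher and 39 lower, with a median of -0.017 against -0.002 over all genes, of which 49.8% had a positive value. None was called by edgeR, beside 1.16% of all genes, and DESeq2 also called none, beside 3.17%. Ranges were apart for 4 genes higher and 5 lower in docetaxel, beside 14.9% and 14.1% of all genes. At an unadjusted p under 0.05 there was 1, Rpl3 (-0.48 ± 0.22, adjusted p = 0.489, edgeR). Rpl3 was the single call in the 16 libraries (-0.46, adjusted p = 0.00582, edgeR), beside 5.17% of all genes called lower. For Rpl36 the 95% interval of the log2 fold change in hβ3 ran from -0.62 to 0.07, and for Rpl8 from -0.40 to 0.21.

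**Figure D2:**
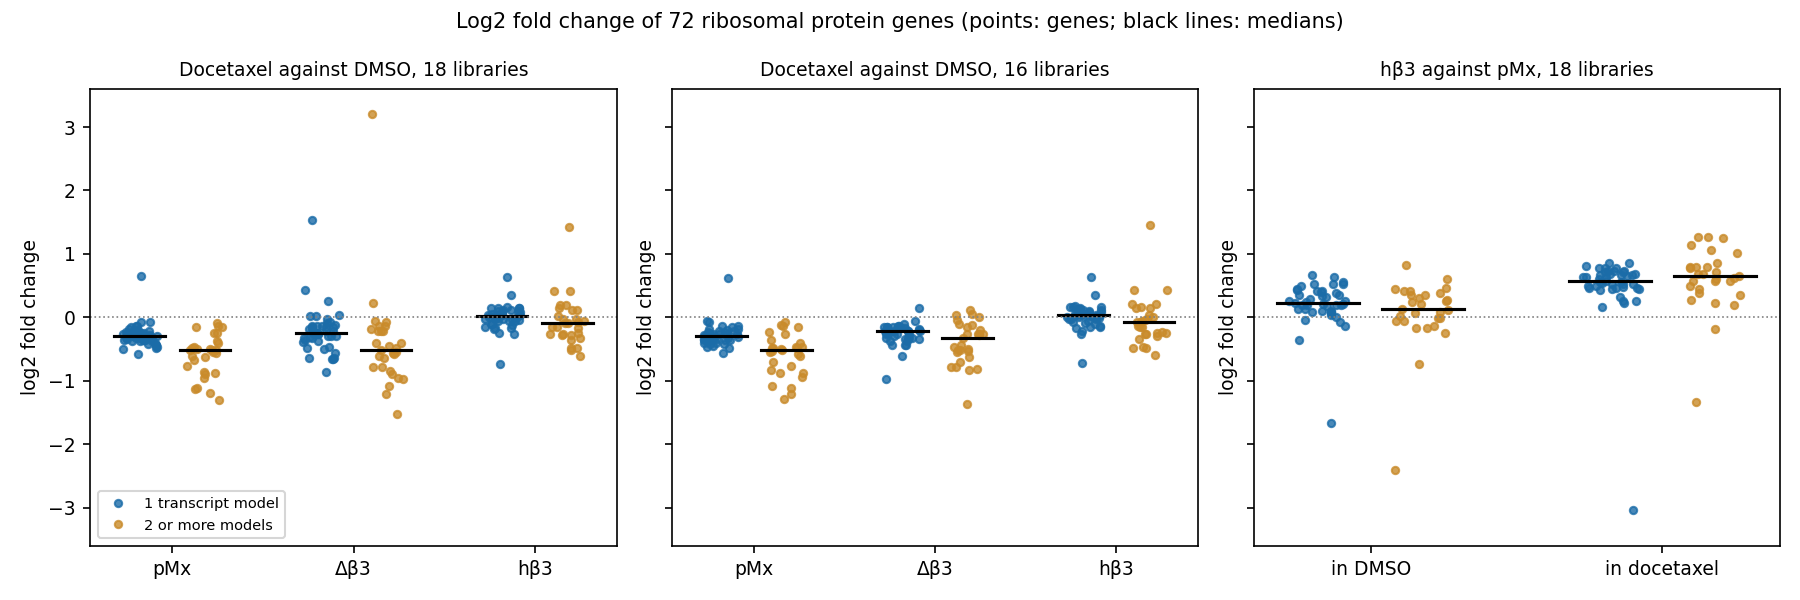
Log2 fold changes of the 72 tested ribosomal protein genes for docetaxel against DMSO in each line, in 18 libraries (left) and 16 (middle), and for hβ3 against pMx in each medium (right). Each point is 1 gene, coloured by its number of transcript models, and black lines are medians; points of pMx and Δβ3 lie mostly below 0, those of hβ3 around 0.

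The difference between the lines in this response was tested itself. None of the 72 genes passed in the joint test of the 3 lines, beside 0.0165% of all genes; 1 had an unadjusted p under 0.05 and DESeq2 called none. For hβ3 minus pMx, 67 of 72 differences were above 0 with a median of 0.362, against 53.3% and a median of 0.031 over all genes, but none was called (beside 0.0165% of all genes), and 2 had an unadjusted p under 0.05. For hβ3 minus Δβ3 the median was 0.332, none was called (beside 0.0412%) and 8 had an unadjusted p under 0.05. For Δβ3 minus pMx it was 0.06, again with none called (beside 0%) and 2 at an unadjusted p under 0.05. DESeq2 called none in these pairs. The counts at an unadjusted p have no share of all genes beside them and are descriptions only. These differences share groups, so they are not independent. In the 16 libraries Rps2, named after its value was seen, passed for hβ3 minus pMx (0.74, adjusted p = 0.044, edgeR), beside 1.25% of all genes called with a larger value in hβ3. Without pMx docetaxel culture 1 as well, the median of hβ3 minus pMx was 0.212 and no gene passed. In the 18 libraries no single gene was therefore shown to respond differently between the lines.

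The lines were next compared within each medium, which asks what the integrin constructs changed. In docetaxel, hβ3 cells had 10 of 72 genes higher than pMx cells and none lower, beside 4.63% of all genes called higher and 3.83% called lower. Log2 fold changes were positive for 69 of 72 genes, beside 48.9% of all genes, and the median was 0.61 against -0.015. In 61 of 72 genes each hβ3 culture lay above each pMx culture, beside 23.5% of all genes, and in none did each lie below, beside 19.8%. Rn45s took 11.1% to 19.2% of counts in hβ3 docetaxel and 6.59% to 8.81% in pMx docetaxel libraries. With Rn45s left out of the fit the count was again 10, but this removes 1 gene and keeps the same libraries. The part of the Rn45s difference between the libraries in this comparison was not tested. Heart muscle markers were at 182 to 762 CPM in hβ3 docetaxel and at 228 to 2449 CPM in pMx docetaxel, with the highest value in culture 1, and the comparison without that culture is given below. The 16 libraries gave 40 of 73 genes called higher, beside 15.2%, with all 10 among them.

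Of the 3 stalk genes Rplp1 was called, and of the 2 partners of 5S ribosomal RNA Rpl11. Rplp1, on chromosome 9 from 61913284 to 61914542 (minus strand), was at 951, 1439 and 1409 CPM in pMx docetaxel and at 2083, 2365 and 2030.3 in hβ3 docetaxel. The groups did not overlap, and pMx culture 1 was the lowest. The log2 fold change was 0.77 ± 0.19 (adjusted p = 0.0152, edgeR). The other stalk genes did not pass: Rplp0 had 2889.7, 3307 and 3278 CPM in pMx and 4207, 4432 and 4149 in hβ3, without overlap, and a log2 fold change of 0.43 ± 0.18 (adjusted p = 0.179, edgeR; 0.000139 in the 16 libraries). Rplp2 had 396, 739 and 709.7 CPM in pMx and 827, 909.5 and 838 in hβ3, also apart, with 0.48 ± 0.29 (adjusted p = 0.414, edgeR).

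Rpl11 was at 145, 249 and 238 CPM in pMx docetaxel and at 351, 400 and 361 in hβ3 docetaxel. Every hβ3 culture was above every pMx culture, and the log2 fold change was 0.81 ± 0.20 (adjusted p = 0.0143, edgeR). Its partner Rpl5 was at 383, 593 and 545 CPM in pMx and 696, 716 and 668 in hβ3. These ranges were apart too, but the log2 fold change of 0.45 ± 0.19 did not pass in the 18 libraries (adjusted p = 0.173, edgeR; 0.00807 in the 16). Docetaxel itself left both uncalled, with mean log2 fold changes of -0.30 ± 0.11 for Rpl11 (adjusted p = 0.0851, edgeR) and -0.08 ± 0.11 for Rpl5 (0.659).

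Rpl36 and Rpl8, whose values by culture are given above, had log2 fold changes of 0.85 ± 0.18 (adjusted p = 0.00539, edgeR) and 0.78 ± 0.16 (0.0044) in hβ3 over pMx under docetaxel. In both genes the lowest hβ3 culture was above the highest pMx culture. They alone of the 10 kept their call in every fit without 1 library, at adjusted p values of up to 0.0423 and 0.036. The count of calls rested on single libraries: it was 2 without pMx docetaxel culture 1 and 2 without hβ3 docetaxel culture 2. It was 4 to 5 without pMx docetaxel culture 3, hβ3 docetaxel culture 1 or hβ3 docetaxel culture 3. It was 21 without Δβ3 DMSO culture 1 and 27 without Δβ3 docetaxel culture 2. Without both of these Δβ3 libraries, 15.2% of all genes were called higher, against 4.63% in the 18 libraries, so calls rose over all genes too. Leaving out pMx docetaxel culture 1 and both Δβ3 libraries gave 27 of 72 genes higher, beside 13.4% of all, with a median of 0.421 and all 72 values above 0.

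Rpl34 and Rps2 are genes with several models and few counts. Rpl34 was at 1.48, 2.24 and 1.97 CPM in pMx docetaxel and 2.84, 5.2 and 5.55 in hβ3 docetaxel, a log2 fold change of 1.25 ± 0.34 (adjusted p = 0.0285, edgeR). Rps2, which lies at the entry of the messenger RNA channel, was at 8.89, 12.1 and 11.2 CPM in pMx and 17.9, 22.9 and 17.2 in hβ3, a log2 fold change of 0.85 ± 0.23 (adjusted p = 0.03, edgeR). Groups did not overlap in either gene. Rpl34 lost its call in 5 of the 18 fits without 1 library, with the highest adjusted p of 0.139 without pMx docetaxel culture 1. Rps2 lost it in 6, with the highest of 0.167 without hβ3 docetaxel culture 2.

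Another 4 genes called in this comparison fell outside the naming rule for it and are given because the call list is short. Rpl14 was at 359, 569.5 and 540.4 CPM in pMx docetaxel and 757, 876 and 807 in hβ3 docetaxel, with a log2 fold change of 0.73 ± 0.19. Rps7, a 40S protein, was at 281, 432 and 393 CPM in pMx and 625, 672 and 538 in hβ3, also with 0.73 ± 0.19. Both genes separated the groups, with pMx culture 1 the lowest. Rpl4 was at 1784, 2266 and 2204 CPM in pMx and 3208, 3367 and 3147 in hβ3, with 0.64 ± 0.16. Rpl6 was at 472, 551 and 560.5 CPM in pMx and 786, 805 and 782 in hβ3, with 0.58 ± 0.15. In Rpl4 and Rpl6 the hβ3 cultures lay close together and well above all pMx cultures.

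**Figure D3:**
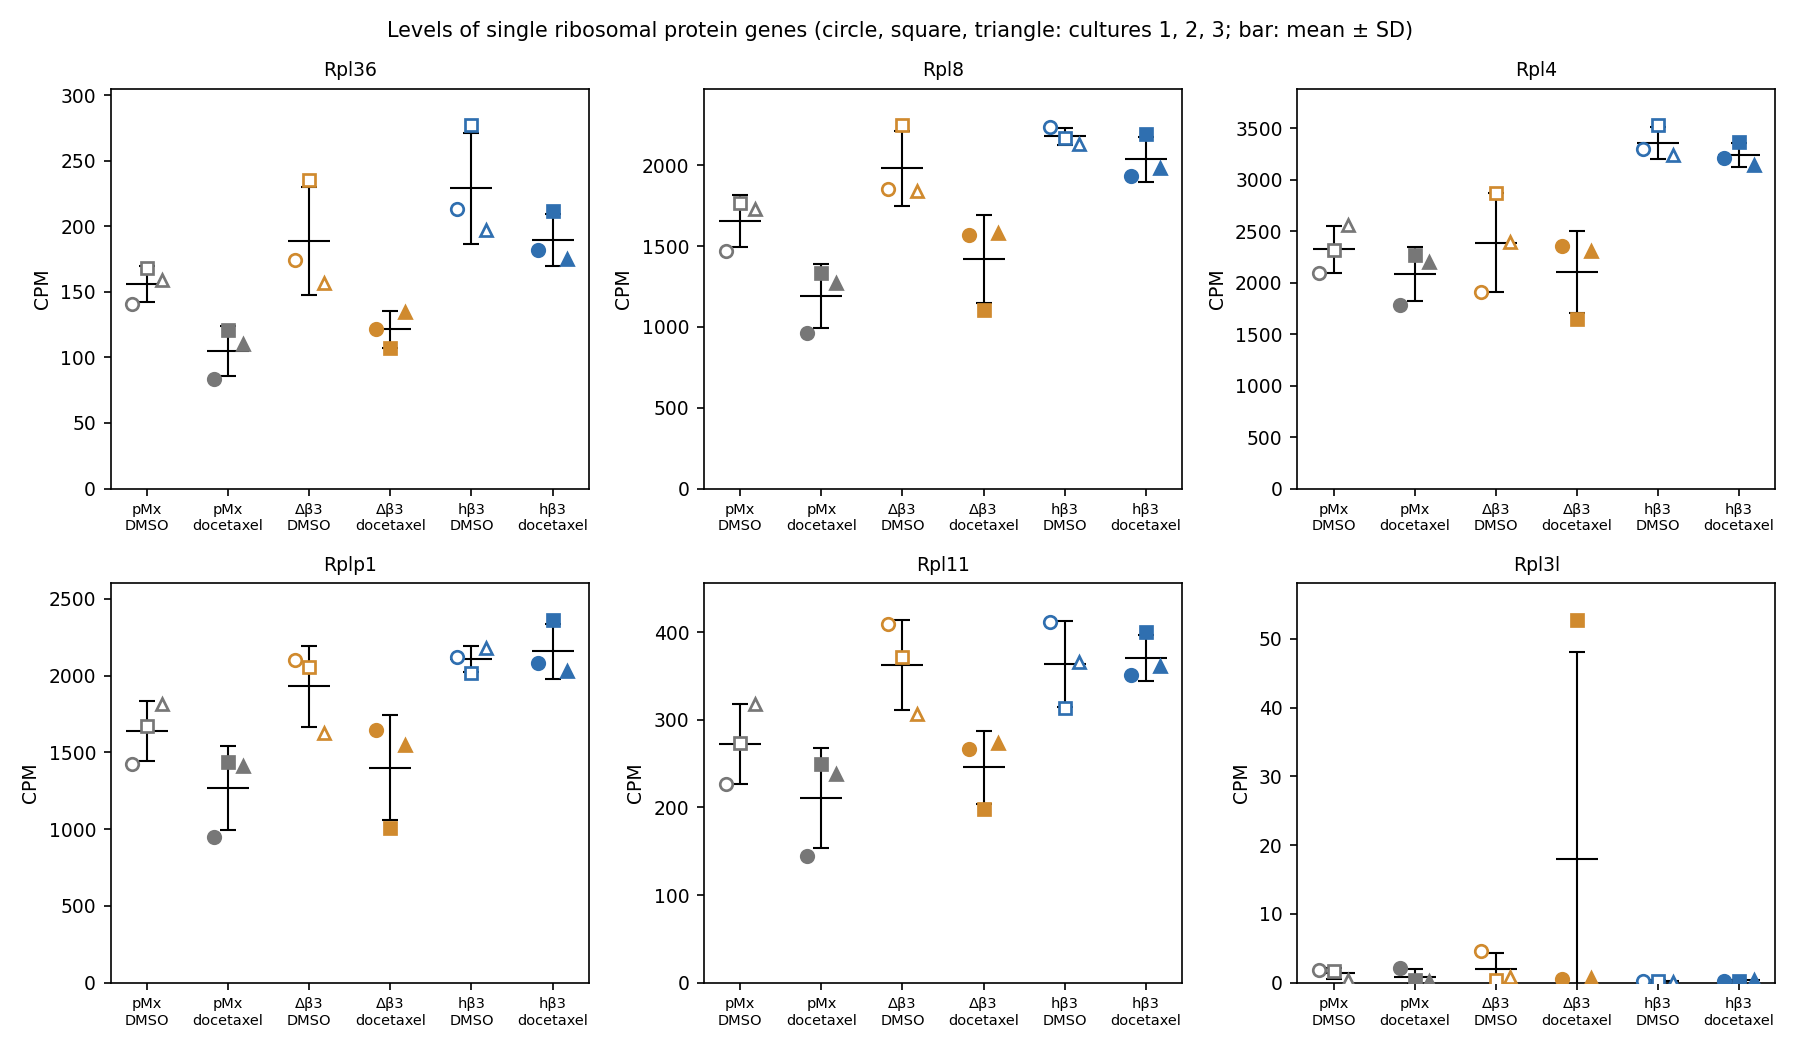
Level in CPM (vertical axis from 0) of 6 ribosomal protein genes in the 18 cultures, by group. Points are cultures, filled in docetaxel, and bars are the mean ± SD (n = 3); Rpl36, Rpl8, Rpl4, Rplp1 and Rpl11 are higher in hβ3 than in pMx docetaxel cultures, and Rpl3l is high in Δβ3 docetaxel culture 2.

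In DMSO the hβ3 line differed less from pMx. A single gene, Rpl6, was called higher, beside 4.88% of all genes. It was at 553, 603 and 696 CPM in pMx DMSO and 944, 873 and 851 in hβ3 DMSO, without overlap, and the log2 fold change was 0.53 ± 0.15 (adjusted p = 0.0364, edgeR). Of the 18 fits without 1 library, 10 lost this call, and the highest adjusted p was 0.183 without pMx DMSO culture 1. Positive values were found for 57 of 72 genes, beside 49.3% of all, with a median of 0.215 against -0.008. The ranges separated with hβ3 higher in 20 genes, beside 19.8% of all, a share of 27.8%, and with hβ3 lower in 2, beside 18.6%. The 16 libraries called 9 of 73 genes higher, beside 13.3% of all, so the count was below the background. They also called Rpl3l lower, beside 13.5%. Without Δβ3 docetaxel culture 2 alone 5 genes were called, without Δβ3 DMSO culture 1 or culture 2 it was 3 each, and without pMx DMSO culture 1 or 2, pMx docetaxel culture 2 or 3, or any 1 hβ3 culture it was 0. The 60S genes had a median of 0.294 and the 40S genes one of 0.093. Whether the line difference was larger in docetaxel than in DMSO is the same test as the difference in response above, which no gene passed.

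**Figure D4:**
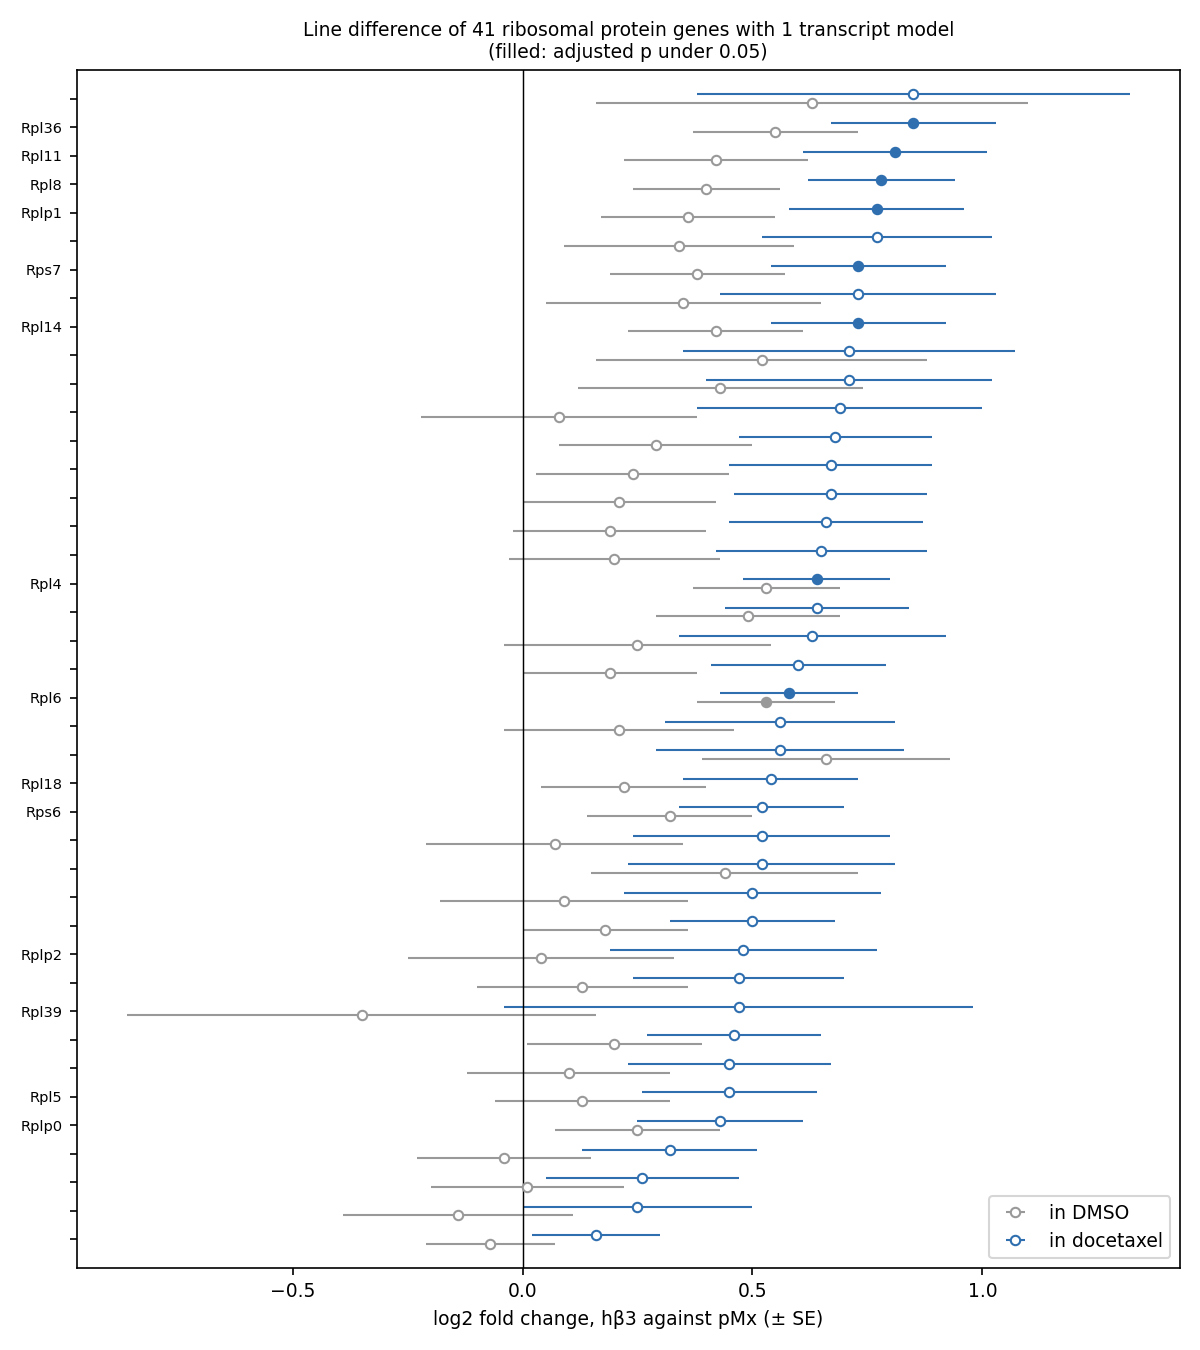
Log2 fold change of hβ3 against pMx (± SE) for 41 ribosomal protein genes with 1 transcript model and at least 50 CPM, in DMSO (grey) and docetaxel (blue), sorted by the value in docetaxel, with names for some of the genes described in the text. Filled points passed the adjusted threshold; Rpl36, Rpl11, Rpl8, Rplp1, Rps7, Rpl14, Rpl4 and Rpl6 are filled in docetaxel and Rpl6 also in DMSO.

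The signalling-deficient Δβ3 line was not set apart from pMx by any of the 72 genes. None was called in DMSO, beside 0.0412% of all genes, or in docetaxel, beside 0.0247%. At an unadjusted p under 0.05 there were 4 and 3, and DESeq2 and the 16 libraries called none in either medium. The medians were 0.037 in DMSO and 0.12 in docetaxel. In the 16 libraries the docetaxel median was 0.264, and in 29 of 73 genes both Δβ3 cultures lay above the 3 pMx cultures, beside 16.7% of all genes. The DMSO median there was 0.17, with 60 of 73 values above 0, beside 48.4% of all genes. Both Δβ3 DMSO cultures lay above the 3 pMx cultures in 3 genes, beside 13.4%. For hβ3 over pMx in DMSO the 16-library median was 0.193, with 57 of 73 values above 0, beside 47.6%. For hβ3 over Δβ3 in DMSO it was 0.059. For Rpl8 the log2 fold change of Δβ3 over pMx in docetaxel was 0.25 with a 95% interval of -0.06 to 0.56, whereas that of hβ3 over pMx had one of 0.47 to 1.08.

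Compared with Δβ3 in docetaxel, hβ3 had 6 genes higher and none lower, beside 4.38% of all genes called higher and 5.69% called lower. The genes were Rps2 (log2 fold change 0.85 ± 0.23), Rpl6 (0.64 ± 0.15), Rpl36 (0.64 ± 0.18), Rplp1 (0.62 ± 0.19), Rpl4 (0.62 ± 0.16) and Rpl8 (0.52 ± 0.16). Rpl4, for example, was at 2355, 1643 and 2311 CPM in Δβ3 docetaxel, below the 3147 of the lowest hβ3 culture. In 53 of 72 genes each hβ3 culture lay above each Δβ3 culture, beside 16.5% of all genes, and in 1 each lay below, beside 12.7%. This comparison uses the same hβ3 libraries as the one with pMx, so the values stand side by side and are not independent. The 16 libraries called 8 of 73 genes higher, beside 9.6% of all, near the background, and 4 of the 6 were among them. Without hβ3 docetaxel culture 2 none was called, without hβ3 docetaxel culture 1 or culture 3 it was 1 each, without Δβ3 docetaxel culture 2 it was 3, without Δβ3 docetaxel culture 3 it was 11, without Δβ3 DMSO culture 1 it was 14, and without Δβ3 docetaxel culture 1 it was 15. In DMSO none of the 72 genes was called between hβ3 and Δβ3, beside 13.1% of all genes; 6 had an unadjusted p under 0.05, and DESeq2 called 2 higher and 1 lower, beside 7.5% and 9.53%. The 16 libraries called 3 higher, Rpl10a, Rpl4 and Rpl6, beside 11.1% of all genes. They were named after their values were seen. Without Δβ3 DMSO culture 2 or Δβ3 docetaxel culture 2 alone 3 genes were called, and without Δβ3 DMSO culture 3 or hβ3 DMSO culture 2 it was 1.

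Paralogs with known tissue patterns were described separately. Rpl3l, the striated-muscle form of Rpl3, was at 52.8 CPM in Δβ3 docetaxel culture 2 and 4.64 in Δβ3 DMSO culture 1, and at 0.142 to 2.12 CPM in the other 16 libraries. These 2 are the libraries with the highest heart muscle markers, and the next highest, pMx docetaxel culture 1, held the 2.12 CPM. Rpl3l accounts for the highest log2 fold change of the set in Δβ3 cells under docetaxel, 3.21 ± 1.49, which was not called (adjusted p = 0.192, edgeR) and was -0.04 in the 16 libraries. The pseudogene Rps4l had 61 counts in Δβ3 docetaxel culture 2 and 27 in Δβ3 DMSO culture 1, against 0 to 14 elsewhere. Rps27l, a p53-induced relative of Rps27, was measured at 0 to 1.28 CPM, and its mean docetaxel log2 fold change of 0.23 ± 0.55 was not called (adjusted p = 0.818, edgeR). Rps27 had -0.62 ± 0.21 (adjusted p = 0.0505; 0.00497 in the 16 libraries). Rpl39, on the exit tunnel, was at 133 to 707 CPM with 0.23 ± 0.29 (adjusted p = 0.653). Rpl39l and Rpl10l, the forms known from male germ cells, had 1 and 6 counts over all libraries.

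Further genes of the fixed naming list did not pass this test for docetaxel. The log2 fold change was -0.27 ± 0.10 for Rps6, the substrate of the S6 kinases (adjusted p = 0.0903, edgeR). It was -0.75 ± 0.25 for Rpsa (0.0501), -0.43 ± 0.16 for Rps18 (0.0796), -0.40 ± 0.17 for Rpl13a (0.123), 0.08 ± 0.18 for Rpl10 (0.81) and -0.08 ± 0.13 for Rpl23 (0.708). Rpsa passed in the 16 libraries (-0.74, adjusted p = 0.000245, edgeR).

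The genes that build ribosomes gave larger shares of calls than the ribosomal proteins. Of 40 tested biogenesis factors, docetaxel lowered 30 and raised none as the mean of the lines, with a median of -0.48, beside 7.67% of all genes called lower. In the 16 libraries 37 fell, beside 14.3%. Among them were Nop2, a methyltransferase of ribosomal RNA (-0.65 ± 0.07), Eif6, which keeps 60S subunits from joining too early (-0.52 ± 0.07), and Rrp9 (-0.69 ± 0.09). Medians of this list were -0.51 in pMx, -0.53 in Δβ3 and -0.40 in hβ3, where the ribosomal proteins themselves had -0.017. In hβ3 over pMx under docetaxel 21 of 40 were higher and none lower, with a median of 0.64, beside 4.63% of all genes called higher. The smallest p values were those of Eif6 (0.94 ± 0.12), Ltv1 (0.78 ± 0.11) and Nop2 (0.77 ± 0.11). This line difference was also present in DMSO, where 17 of 40 were higher and none lower, with a median of 0.48, beside 4.88%. The difference in response, hβ3 minus pMx, had a median of 0.1 in this list and no call, beside 0.0165% of all genes.

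The next counts stand beside the same shares of all genes, 7.67% lower with docetaxel and 4.63% higher in hβ3 over pMx under docetaxel. RNA polymerase I subunits and factors fell in 7 of 16 cases and rose in none (median -0.29), for example Polr1b (-0.48 ± 0.06) and Cd3eap (-0.53 ± 0.08). In hβ3 over pMx under docetaxel 6 of 16 were higher, Twistnb by 0.66 ± 0.13. Mitochondrial ribosomal proteins fell in 11 of 63 cases and rose in none (median -0.17), with 43 lower in the 16 libraries beside 14.3% of all genes, and Mrpl12 (-0.56 ± 0.08) had the smallest p. For hβ3 over pMx under docetaxel 8 of the 63 were higher (median 0.43). Other messenger RNAs with a TOP tract fell in 4 of 23 cases and rose in none (median -0.12): Impdh2 (-0.42 ± 0.08), Eif2s3x (-0.37 ± 0.09), Eef1g (-0.35 ± 0.09) and Eef1d (-0.43 ± 0.12). Between hβ3 and pMx under docetaxel 4 of them were higher, led by Eef1g (0.83 ± 0.15) and Ybx1 (0.68 ± 0.13).

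Of 31 genes of translation initiation and its control, 13 fell and 2 rose with docetaxel, beside 7.67% of all genes called lower and 7.9% called higher. Larp1 fell (-0.42 ± 0.07), as did the initiation factor Eif3b (-0.50 ± 0.10), while the eIF2α kinases Eif2ak3 (0.55 ± 0.11) and Eif2ak2 (0.62 ± 0.13) rose. Of 18 genes of the p53 loop 12 rose and none fell, beside the same 7.9% and 7.67%, with a median of 0.74, among them Btg2 (1.71 ± 0.15) and Gdf15 (2.63 ± 0.34). Mdm2 itself, which Rpl5 and Rpl11 bind, was at 0 to 1.56 CPM. A list of relatives and partners of ribosomal proteins outside the name rule had 8 tested genes. Of these, Rpl36al (-0.99 ± 0.26) and Rsl24d1 (-0.39 ± 0.10) fell with docetaxel, beside 7.67% of all genes. Fau (1.43 ± 0.30) and Rps19bp1 (0.66 ± 0.19) were higher in hβ3 than in pMx under docetaxel, beside 4.63%. The product of Fau holds a 40S protein, whereas that of Rps19bp1 binds Rps19 and is not itself a ribosomal protein.

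**Figure D5:**
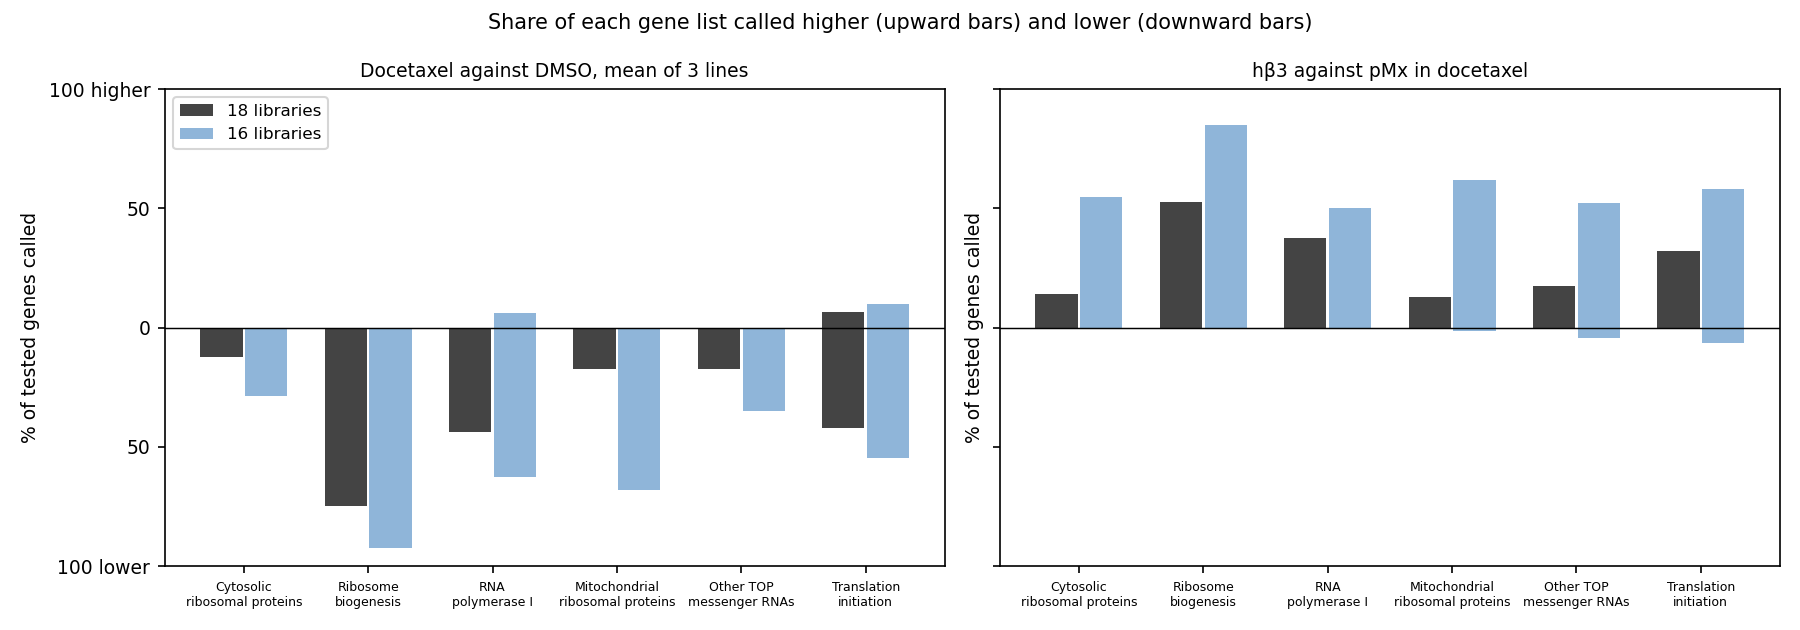
Percent of the tested genes of 6 lists called higher (upward bars) or lower (downward bars), for docetaxel as the mean of 3 lines (left) and for hβ3 against pMx in docetaxel (right), in 18 (dark) and 16 (light) libraries. Ribosome biogenesis has the tallest bars in both panels, 30 of 40 genes lower and 21 of 40 higher in the 18 libraries.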

How the data were processed

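The authors deposited 1 table of raw read counts per transcript model, with the length of each model in bases as a further column. Per the submitters' processing notes, the tools were HISAT2 and featureCounts, with FastQC, and the build was mm10. Versions, strandedness and the rule for reads with several matches were not given in the sources used here. Reads shared by models or by gene copies may be missing or misassigned. Libraries were 50-base single reads of RNA from which ribosomal RNA had been removed, per the labels' protocols.

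Counts of the 63759 models were summed over 32699 symbols. Genes passing filterByExpr were scaled with TMM factors and tested in R 4.3.3 with edgeR 4.0.16 (robust quasi-likelihood, 1 coefficient per group, all 18 libraries, two-sided, Benjamini-Hochberg over all tested genes, called under 0.05). The code was run on simulated counts with a spread near that of the 16 libraries and below that of the 18. That run therefore does not show how the 18-library fit performs. The 95% intervals use the SE and a normal quantile. They are therefore narrower than the quasi-likelihood test implies, and one that leaves out 0 can go with an unadjusted p above 0.05. DESeq2 1.42.0 was an alternative, beside other scaling, no filter, a replicate block, groups fitted alone, Rn45s left out, 16 libraries and each library left out. Fits with 15 libraries, or with the model of highest count per symbol, were chosen after seeing the data. Lengths were used for CPM per kilobase of genes with 1 model.

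Named were the called genes with the largest changes (up to 15 per direction for the mean response, 6 within a line, 8 between lines in DMSO, 5 between lines in docetaxel), a set of paralogs and stalk, 5S and reference genes, and up to 4 genes per other list by p. The genes, lists and tests were chosen with earlier results of these data known. Promoter letters came from RefSeq (GRCm38.p6), gene types from GENCODE M21, and transcript windows from GENCODE transcripts. No protein sequences were used here. Results of some single genes are not reported here; counts over all genes of the set include them.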

Additional observations from a re-analysis of the deposited data

How the results depend on the processing

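Of the counts of ribosomal protein genes called, those of Δβ3 against pMx (0 in DMSO and in docetaxel) and of the joint difference in response (0) did not change under any alternative run. For the mean docetaxel response (9) the count was 17 with DESeq2, 21 with 16 libraries and 21 with 15, and 7 to 14 with 1 library left out. For docetaxel in pMx (0) it was 4 with DESeq2, 20 with 16 libraries, 17 with only the groups compared, 10 with 15 libraries, and 0 to 7 with 1 library left out. For Δβ3 (4) it was 15 with DESeq2, 2 with no filter, 0 with only the groups compared, 10 with 15 libraries, and 2 to 9 with 1 library left out. For hβ3 (0) it was 1 with 16 libraries, 2 with only the groups compared and 1 with 15. For hβ3 against pMx in DMSO (1) it was 2 with RLE size factors, 3 with DESeq2, 0 with no filter, 10 with 16 libraries, 13 with only the groups compared, 2 with Rn45s left out, 18 with 15 libraries, and 0 to 5 with 1 library left out. For hβ3 against Δβ3 in DMSO (0) it was 3 with DESeq2, 3 with 16 libraries, 4 with 15, and 0 to 3 with 1 library left out. For hβ3 against pMx in docetaxel (10) it was 17 with DESeq2, 40 with 16 libraries, 33 with only the groups compared, 27 with 15, and 2 to 27 with 1 library left out. For hβ3 against Δβ3 in docetaxel (6) it was 12 with DESeq2, 3 with no filter, 0 with only the groups compared, 20 with 15 libraries, and 0 to 15 with 1 library left out. The share of all genes called moved with the fit as well. For hβ3 against pMx in DMSO it was 9.02% in 18 libraries and 26.8% in 16, beside 1.39% and 13.7% of the ribosomal protein genes. For hβ3 against Δβ3 in DMSO it was 13.1% and 23.3%, beside 0% and 4.11%. In docetaxel, hβ3 against pMx had 8.46% and 27.3%, beside 13.9% and 54.8%. The mean response had 15.6% and 30.1%, beside 12.5% and 28.8%. A larger count is therefore not by itself a result about these genes. The causes of these shifts were not tested.

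Whether the replicate numbers pair the samples was not settled by the correlations of deviations. Between same-numbered samples these ran from -0.532 to 0.459 (median 0.0491). Between differently numbered samples they ran from -0.546 to 0.563 (median -0.0231). Of the 18 samples, 10 correlated best with their own number. With the replicate block the counts were 9 for the mean response, 0 in pMx, 3 in Δβ3, 0 in hβ3, 1 for hβ3 against pMx in DMSO and 10 in docetaxel, and 4 for hβ3 against Δβ3 in docetaxel. Of 1459 alternatives for 55 named values, 9 changed sign and none gave a call in the opposite direction. In the fits without 1 library, 92 of these values lost a call, 12 gained one and 886 kept their status. The median of all genes was 0.111 for docetaxel in Δβ3 (0.117 with RLE factors), and -0.107 for hβ3 against Δβ3 in docetaxel with RLE factors, so changes there are to be read against those shifts. Genes at a few CPM rest on few counts per library, and with 3 cultures a group a difference that missed the threshold is not shown to be absent.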
